A study of Mus musculus with 6 samples.

Results

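The glycolysis and hypoxia response genes described here are 34 mouse genes, 20 for glucose uptake, glycolysis and lactate and 14 targets of the hypoxia-inducible factors, out of 23765 genes named on the arrays. They were taken from a list of symbols, matched through the RefSeq transcript that each array probe was designed to, with no threshold on their values. Their RNA levels come from 6 one-colour arrays of fallopian tube organoids of female mice, with 1 array for each group. Fallopian tube organoids are hollow structures grown in culture from the lining epithelium of the mouse oviduct.

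The reference culture, called control, was of Trp53flox/flox mice with the vector pLKO.1 and is not labelled as having lost Trp53. A second culture had lost Trp53, the gene for the tumour suppressor p53 (Trp53 loss). Another joined this loss to Pik3caH1047R, an activated form of the PI3-kinase catalytic subunit (Pik3ca/Trp53). Yet another joined it to Apc580D, a mutant Apc allele (Apc/Trp53), Apc being a brake on Wnt signalling. The last 2 groups were organoids grown out of the subcutaneous tumour of each of these double mutants, where the histology label was adenocarcinoma for Pik3ca/Trp53 and cyst for Apc/Trp53. Loss of Trp53 is thus shared by all groups but control. The labels give all cultures the same serum-free medium, with Jagged-1, R-spondin1, EGF, Noggin, the GSK3 inhibitor CHIR-99021 and Y27632. The labels give neither the number of animals behind a culture nor the oxygen level. The design names 3 pairs of cultures before and after growth in the animal, of which 2 are described and the other was not analysed here.

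Glycolysis splits glucose into pyruvate through a chain of cytosolic enzymes, and lactate dehydrogenase and a lactate exporter dispose of the end product. The hypoxia-inducible factors (HIF) are transcription factors whose alpha subunits are marked for destruction by prolyl hydroxylases when oxygen is present, and that switch on many glycolytic genes together with genes for blood vessel growth, pH control and removal of mitochondria when it is not. PI3-kinase signalling is known to favour glucose uptake and HIF synthesis in epithelial cells. HIF dimers bind short DNA elements with the core ACGTG or GCGTG.

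Promoters are shown because many of these genes share a regulator that reads DNA. From RefSeq promoter sequences of the mouse build GRCm38.p6, each 300 bases long from 250 before to 50 after an annotated start, 33 of the 34 members were matched by symbol, all but Ndrg1. The cores ACGTG and GCGTG were searched on both strands (CACGT and CACGC on the other strand), and overlapping matches were each counted. At least 1 match lay in a promoter of 29 members (87.9%), against 46.7% of all 27025 genes and 43.8% of all 32851 promoters. At least 2 matches lay in a promoter of 22 members (66.7%), against 22.9% of all genes. The members' promoters were also richer in G and C, with a median of 62.7% against 52.7%, and both cores hold more G and C than A and T, so these shares are a description and their relation to base composition was not tested. Of the 20 glycolysis members 17 held a match, and of the 13 hypoxia members with a promoter 12 did.

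The 8 members with the widest range over the arrays were taken, and the 7 sequences printed are of those with 1 start among these promoter sequences. They run 5′ to 3′ in the direction of the gene, with every match in capitals. A match marks letters in this window and is not evidence of binding. Position 1 is the annotated start. The Car9 promoter (chr4:43506776-43507075, plus strand) has 1 match, at -18. That of Egln3 (chr12:54203825-54204124, minus strand) has 1, at -229, and that of Adm (chr7:110627407-110627706, plus strand) has 2, at -90 and -54. Higd1a (chr9:121857747-121858046, minus strand) has 3, of which a pair overlaps at -70 and -66 and the other lies at 44. Ankrd37 (chr8:45999801-46000100, minus strand) has 4, including an overlapping pair at -155 and -152. Eno2 (chr6:124769624-124769923, minus strand) and Car12 (chr9:66713436-66713735, plus strand) have 0 in this window. The annotated genes Car12 and Ankrd37 begin upstream of their windows, at chr9:66712296 and chr8:46000414, so sequence around those outer ends was not read.
Car9: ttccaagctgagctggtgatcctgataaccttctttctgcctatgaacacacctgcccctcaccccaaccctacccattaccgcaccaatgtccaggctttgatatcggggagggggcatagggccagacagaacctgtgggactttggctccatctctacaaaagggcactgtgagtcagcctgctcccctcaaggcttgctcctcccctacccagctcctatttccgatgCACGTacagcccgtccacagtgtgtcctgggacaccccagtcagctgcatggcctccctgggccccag
Egln3: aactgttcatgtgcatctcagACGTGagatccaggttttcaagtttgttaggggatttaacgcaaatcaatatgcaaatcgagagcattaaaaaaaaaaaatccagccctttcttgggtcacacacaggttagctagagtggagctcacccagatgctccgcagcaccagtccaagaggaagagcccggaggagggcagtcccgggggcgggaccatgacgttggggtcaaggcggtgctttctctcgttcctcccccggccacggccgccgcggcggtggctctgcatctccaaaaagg
Adm: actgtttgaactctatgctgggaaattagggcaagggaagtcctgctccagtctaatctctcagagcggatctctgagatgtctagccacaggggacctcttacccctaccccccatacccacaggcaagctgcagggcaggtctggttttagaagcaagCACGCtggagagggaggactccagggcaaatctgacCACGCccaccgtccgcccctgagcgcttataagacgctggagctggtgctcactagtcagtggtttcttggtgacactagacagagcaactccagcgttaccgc
Higd1a: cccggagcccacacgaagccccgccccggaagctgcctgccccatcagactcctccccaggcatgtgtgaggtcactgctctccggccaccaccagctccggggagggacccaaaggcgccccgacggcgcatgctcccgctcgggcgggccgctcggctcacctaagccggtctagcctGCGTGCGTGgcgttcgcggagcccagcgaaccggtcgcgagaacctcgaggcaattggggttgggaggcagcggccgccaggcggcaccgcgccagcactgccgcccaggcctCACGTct
Ankrd37: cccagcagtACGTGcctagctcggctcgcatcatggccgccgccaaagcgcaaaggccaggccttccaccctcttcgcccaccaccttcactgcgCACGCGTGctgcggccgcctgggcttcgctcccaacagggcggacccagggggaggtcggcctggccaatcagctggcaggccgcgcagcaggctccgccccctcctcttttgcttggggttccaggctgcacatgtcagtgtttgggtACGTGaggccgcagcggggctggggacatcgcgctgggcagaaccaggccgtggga
Eno2: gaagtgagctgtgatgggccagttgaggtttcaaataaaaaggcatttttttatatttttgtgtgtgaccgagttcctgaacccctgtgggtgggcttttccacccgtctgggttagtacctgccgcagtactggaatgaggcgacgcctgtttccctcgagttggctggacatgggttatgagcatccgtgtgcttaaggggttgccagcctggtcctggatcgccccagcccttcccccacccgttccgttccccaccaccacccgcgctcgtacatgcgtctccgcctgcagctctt
Car12: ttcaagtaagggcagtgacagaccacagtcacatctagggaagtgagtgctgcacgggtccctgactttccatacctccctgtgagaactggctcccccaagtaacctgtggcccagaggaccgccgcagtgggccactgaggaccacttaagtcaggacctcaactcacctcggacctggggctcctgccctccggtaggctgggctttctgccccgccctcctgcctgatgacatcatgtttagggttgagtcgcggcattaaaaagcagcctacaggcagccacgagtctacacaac

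Levels are log2 intensities from which the array's 75th percentile was subtracted, so 0 is the 75th percentile of all gene spots on that array. A level depends on the probe, and levels of different genes are therefore not set against each other. Between 45.4% and 51.0% of probes were well above background on an array, and the median SD between copies of a probe was 0.0394 to 0.0990 in log2 units. The Pik3ca/Trp53 array had the lowest share, the widest spread between copies and the most outlying spots (238, against 58 to 131 on the others). Trp53, read by 1 probe, had a level of 0.89 in control, was not well above background after Trp53 loss alone, in Pik3ca/Trp53 and in tumour-derived Apc/Trp53 (at least 44.0-fold, 33.3-fold and 47.9-fold lower), and was 22.0-fold lower in Apc/Trp53 and 5.68-fold lower in tumour-derived Pik3ca/Trp53. Of 8 markers of the oviduct's general and secretory epithelium, 7 or 8 were well above background on every array. In RNA of whole cultures, fewer cells of a type and less RNA per cell cannot be told apart.

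The 34 members were measured by 61 probes, of which 59 were well above background on all 6 arrays, 1 of Hk1 on 3 of them and 1 of Pfkfb4 on none. Every member had a probe well above background on all 6 arrays. For 15 members several probes could be compared, and over all genes with several probes the median SD between probes of a gene was 0.128 to 0.212 log2 units in the 5 comparisons made. Those comparisons were Trp53 loss minus control, each double mutant minus Trp53 loss, and both tumour-derived cultures minus the cultures they came from. With 1 array a group, these differences have no replicates and no p-value. A gene was counted as called where the arrays differed at least 2-fold, a log2 difference of 1. The 2 comparisons of double mutants share the Trp53 loss array, and all others share an array with at least 1 of them.

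Most members were highest on the Pik3ca arrays and lowest on the Apc or control arrays. Of the 34, 17 had their highest level in Pik3ca/Trp53 (12 of glycolysis and 5 of hypoxia), 7 in tumour-derived Pik3ca/Trp53, 5 in Trp53 loss, 3 in control and 2 in tumour-derived Apc/Trp53. Apc/Trp53 was highest for 0 members and lowest for 13, while control was lowest for 10 and tumour-derived Apc/Trp53 for 8. With quantile normalization 11 members were highest in Pik3ca/Trp53 and 10 in its tumour-derived culture. With each array's median in place of its 75th percentile, 4 members were lowest in Apc/Trp53, 13 in its tumour-derived culture and 14 in control. Apc/Trp53 was highest for 0 members under each of these scalings.

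**Figure D1:**
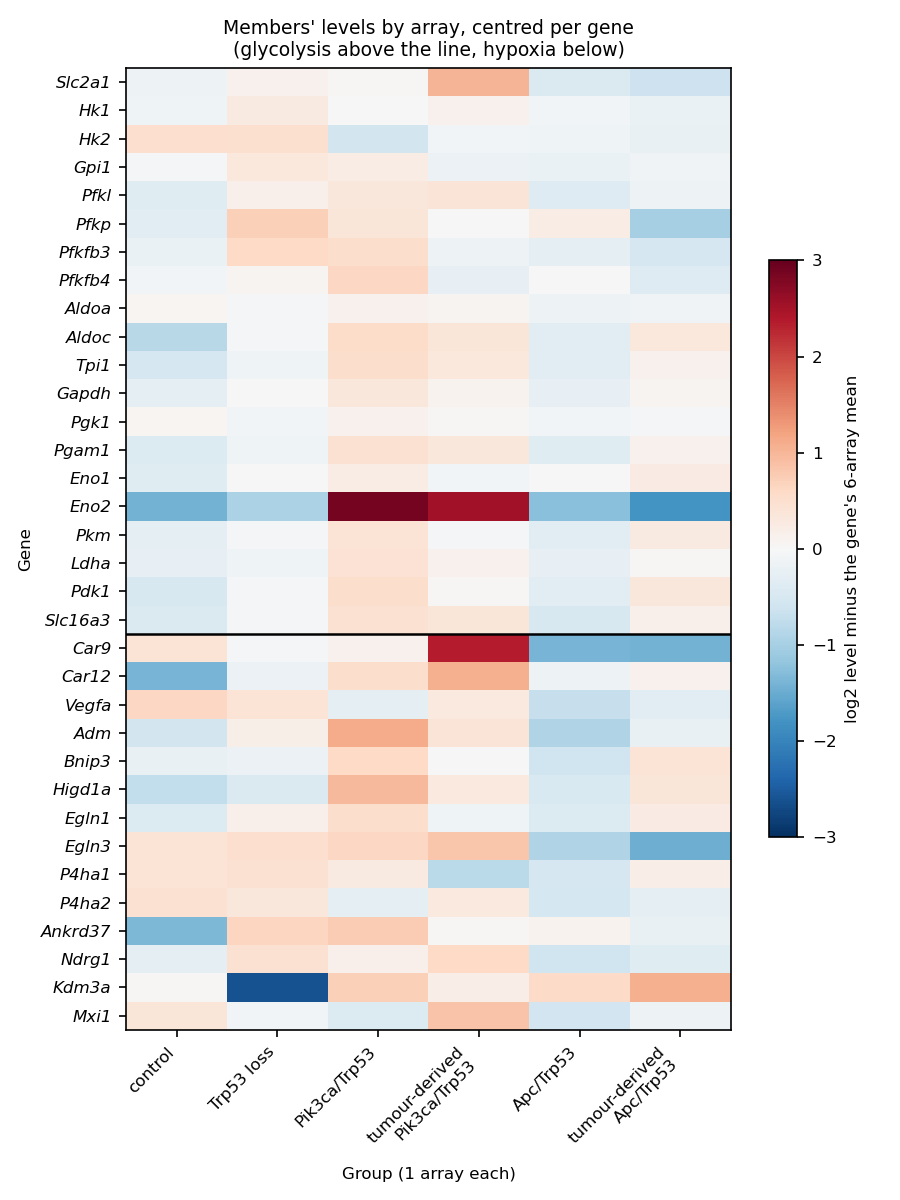
Heat map of the 34 members (rows) on the 6 arrays (columns), coloured by the log2 level minus the gene's own mean over the 6 arrays. Eno2 is dark red on both Pik3ca arrays, Car9 on the tumour-derived Pik3ca/Trp53 array, and Kdm3a dark blue on the Trp53 loss array alone.

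The range over the 6 arrays, highest minus lowest level, had a median of 0.90 log2 units among the glycolysis members and 1.57 among the hypoxia members. Over the 12561 genes well above background on all 6 arrays it was 0.95. Pgk1 and Aldoa varied least, by 0.21 and 0.30, and Eno2, Car9 and Kdm3a most, by 4.67, 3.77 and 3.67. The Aldoa probe read 27.8% to 33.3% of the scanner's saturation value and the Pgk1 probe 21.9% to 27.2%. No spot was flagged as saturated. Whether signals this bright are compressed was not tested. Ldha had a bright and a dim probe, and in Pik3ca/Trp53 minus Trp53 loss the bright probe differed by 0.24 and the dim probe by 0.87.

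Glucose enters through the transporter GLUT1, encoded by Slc2a1, whose level was 4.05 in control, 4.33 after Trp53 loss, 4.24 in Pik3ca/Trp53, 5.23 in tumour-derived Pik3ca/Trp53, 3.78 in Apc/Trp53 and 3.58 in tumour-derived Apc/Trp53. The tumour-derived Pik3ca/Trp53 array stood above the other 5, and both Apc arrays lay lowest. Against its source the difference was 0.99, just under 2-fold (1.99-fold). Hexokinase 2, which traps glucose in the cell as its phosphate, had another pattern, though Hk2 too was above its source in tumour-derived Pik3ca/Trp53, by 0.47. Hk2 levels in the same order were 3.51, 3.49, 2.46, 2.93, 2.87 and 2.80, so the control and Trp53 loss arrays were above all 4 double-mutant arrays. In Pik3ca/Trp53 it was 2.04-fold lower than in Trp53 loss (log2 difference -1.03). Hk1, the broadly expressed hexokinase, varied by 0.48 in all, the mean of 1 bright probe and 1 that was near the background limit. Gpi1, for the isomerase that turns glucose 6-phosphate into the fructose form, had levels of 6.57, 6.95, 6.86, 6.46, 6.44 and 6.52 over 3 probes, highest in Trp53 loss and lowest in Apc/Trp53.

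Phosphofructokinase commits sugar to glycolysis, and its platelet-type subunit gene Pfkp had levels of 2.15, 3.17, 2.82, 2.49, 2.68 and 1.47 in the same order of groups. Trp53 loss was highest and tumour-derived Apc/Trp53 lowest. Both Pfkp probes gave this pattern, with an SD between them of 0.03 for Trp53 loss minus control (2.02-fold higher) and of 0.11 for tumour-derived Apc/Trp53 minus its source (2.32-fold lower). The liver-type subunit gene Pfkl was instead highest on the Pik3ca arrays, at 3.35 and 3.39, against 2.62 to 3.15 on the others. Pfkfb3, which makes the activator of phosphofructokinase, was at 1.04 in Trp53 loss and 0.96 in Pik3ca/Trp53 and between -0.07 and 0.30 elsewhere. Its relative Pfkfb4 was at 1.16 in Pik3ca/Trp53 and between 0.14 and 0.62 elsewhere.

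The middle and end of the pathway showed small differences in a similar order of arrays. Aldoc, Tpi1, Gapdh, Pgam1, Ldha and Pdk1 were each lowest in control and highest in Pik3ca/Trp53. Aldoc encodes aldolase C, Tpi1 triosephosphate isomerase, Pgam1 phosphoglycerate mutase, and Pdk1 a kinase that keeps pyruvate out of the mitochondrion. Their ranges ran from 0.62 log2 units for Gapdh, the mean of 6 probes, to 1.38 for Aldoc, the mean of 2. Aldoc levels were 4.45, 5.21, 5.83, 5.64, 4.93 and 5.60, and Tpi1 ran from 4.63 in control to 5.65 in Pik3ca/Trp53, over 3 probes. Both were higher on each Pik3ca array than on any array of control, Trp53 loss or Apc/Trp53 before inoculation, and tumour-derived Apc/Trp53 came next. Slc16a3, the gene of the lactate exporter MCT4, had levels of 4.63, 5.03, 5.53, 5.44, 4.58 and 5.22, in the same order. Pkm, the muscle-type pyruvate kinase, was at 5.94 in Pik3ca/Trp53 and 5.80 in tumour-derived Apc/Trp53, and at 5.23 to 5.50 on the other arrays.

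Eno2 set the Pik3ca cultures apart more than any other member. It encodes gamma-enolase, the enolase of neurons and neuroendocrine cells, while Eno1 encodes the widely expressed form. Eno2 levels were -2.56 in control, -2.09 after Trp53 loss, 1.73 in Pik3ca/Trp53, 1.37 in tumour-derived Pik3ca/Trp53, -2.40 in Apc/Trp53 and -2.94 in tumour-derived Apc/Trp53. Both arrays with the Pik3ca mutation were high and the other 4 were low, with no overlap. Pik3ca/Trp53 was 14.1-fold above Trp53 loss, read by 1 probe, and the tumour-derived culture was 1.29-fold below its source. Eno1 varied by 0.60 over 3 probes, with its highest means in tumour-derived Apc/Trp53, at 6.33, and Pik3ca/Trp53, at 6.31. Its probes differed in which of these arrays was higher.

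**Figure D2:**
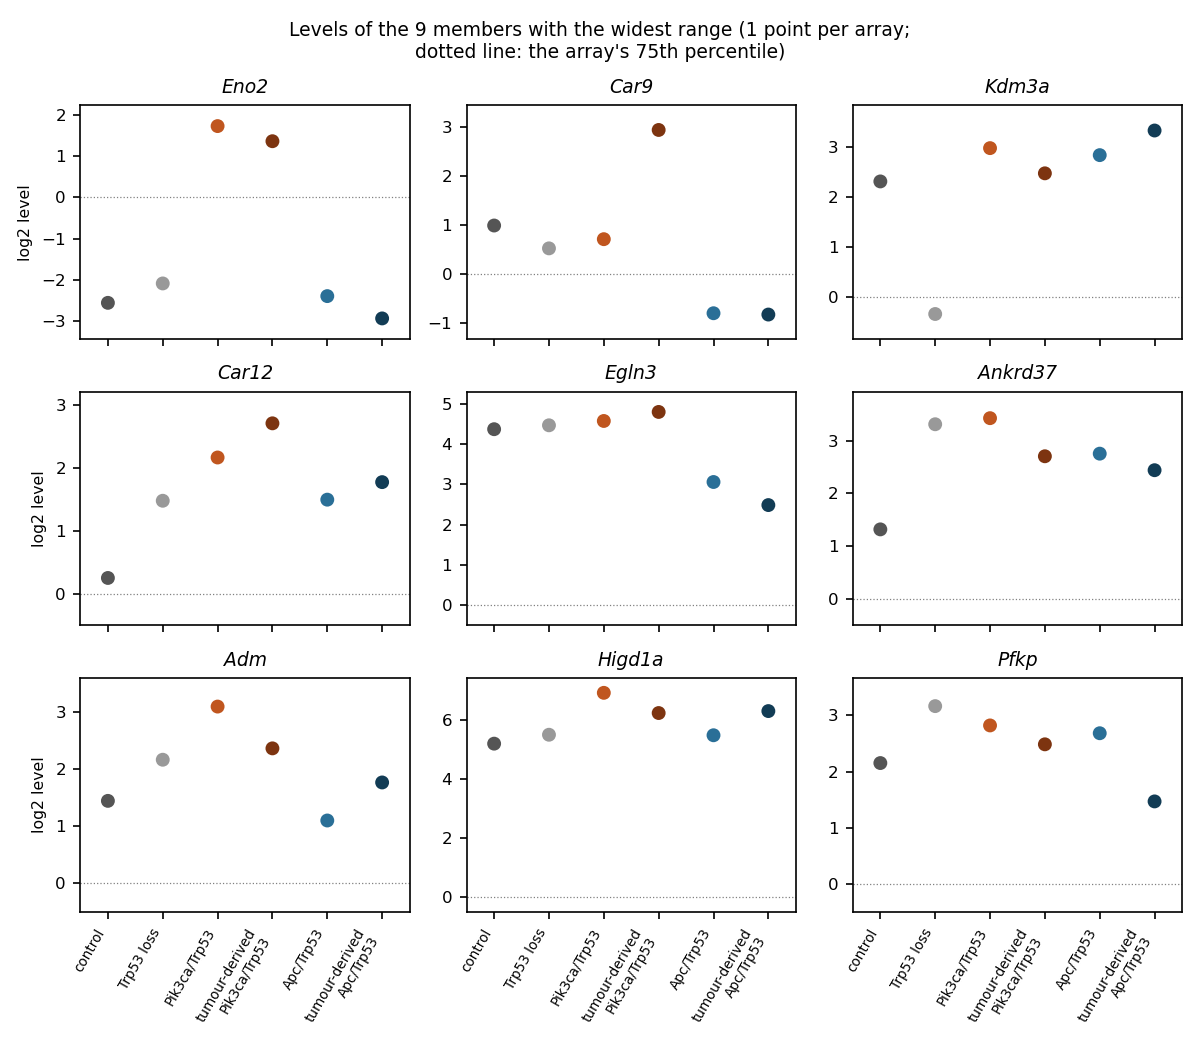
Level of the 9 members with the widest range, 1 point per array and 1 panel per gene, in log2 units relative to the array's 75th percentile (dotted line at 0). Vertical scales differ between panels; Eno2 has 2 high arrays, Car9 has 1, and Kdm3a has 1 low array.

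Among the hypoxia targets, the membrane carbonic anhydrases were the clearest case of members with different patterns. Carbonic anhydrase 9 helps cells to export acid, and Car9 had levels of 0.99 in control, 0.52 after Trp53 loss, 0.71 in Pik3ca/Trp53, 2.94 in tumour-derived Pik3ca/Trp53, -0.81 in Apc/Trp53 and -0.83 in tumour-derived Apc/Trp53. It was high on 1 array and low on both Apc arrays. Both its probes agreed to an SD of 0.01 in Apc/Trp53 minus Trp53 loss (2.51-fold lower) and in tumour-derived Pik3ca/Trp53 minus its source (4.70-fold higher). Car12, with a similar enzyme product, had levels of 0.25, 1.48, 2.16, 2.70, 1.49 and 1.77. Control was lowest, by 2.34-fold against Trp53 loss, and tumour-derived Pik3ca/Trp53 highest.

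Of the secreted signals, Vegfa, the growth factor for blood vessels, was highest in control at 2.28 and in Trp53 loss at 2.06, and lowest in Apc/Trp53 at 0.97. All 4 Vegfa probes were lower in Apc/Trp53 than in Trp53 loss, by 1.00 to 1.22 log2 units, and the gene was 2.14-fold lower. In Trp53 loss minus control they disagreed, from -0.92 to 0.57. Adm, the gene of the vasodilator adrenomedullin, had levels of 1.45 in control, 2.17 after Trp53 loss, 3.10 with the Pik3ca mutation added, 2.37 in tumour-derived Pik3ca/Trp53 and 1.77 in tumour-derived Apc/Trp53. Pik3ca/Trp53 was highest, and Apc/Trp53 lay lowest, 2.09-fold below Trp53 loss.

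Both mitochondrial targets were highest in Pik3ca/Trp53, as many glycolytic enzymes were. Higd1a, for a small protein of the inner mitochondrial membrane, had levels of 5.20, 5.50, 6.93, 6.24, 5.49 and 6.31, and Pik3ca/Trp53 was 2.68-fold above Trp53 loss. Bnip3, for a receptor that marks mitochondria for removal, had levels of 6.57, 6.63, 7.40, 6.81, 6.21 and 7.21. For both genes the tumour-derived Apc/Trp53 array stood above its source, and the tumour-derived Pik3ca/Trp53 array stood below its source. In tumour-derived Apc/Trp53 minus its source Bnip3 differed by 1.00, at the 2-fold line but under it before rounding.

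The prolyl hydroxylases that sense oxygen are HIF targets themselves. Egln1 (PHD2) varied by 0.93 and was highest in Pik3ca/Trp53, at 5.75, while Egln3 (PHD3) split the cultures by genotype. Egln3 levels were 4.37 in control, 4.47 after Trp53 loss, 4.57 in Pik3ca/Trp53, 4.80 in tumour-derived Pik3ca/Trp53, 3.06 in Apc/Trp53 and 2.48 in tumour-derived Apc/Trp53. Both Apc arrays lay below the other 4. Apc/Trp53 was 2.65-fold below Trp53 loss and 1.31 log2 units below control. P4ha1 and P4ha2 encode subunits of the enzyme that hydroxylates collagen. P4ha1 was lowest in tumour-derived Pik3ca/Trp53, at -1.73, and its 2 probes differed there from the source by -0.64 and -1.51. P4ha2 was lowest in Apc/Trp53, at 2.49, and highest in control, at 3.47.

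The remaining targets had several patterns. Ankrd37, an ankyrin repeat gene, had levels of 1.32, 3.31, 3.43, 2.71, 2.76 and 2.44, so control lay below all 5 arrays labelled with Trp53 loss, by 3.98-fold against Trp53 loss. Mxi1, whose product binds MAX and opposes MYC, had levels of 3.36, 2.90, 2.59, 3.84, 2.43 and 2.83. The tumour-derived Pik3ca/Trp53 array was highest, 2.38-fold above its source. Ndrg1, a stress-responsive gene, was 2.08-fold lower in Apc/Trp53 than in Trp53 loss, with levels of 5.47 and 6.52. Like Mxi1, Ndrg1 was highest in tumour-derived Pik3ca/Trp53, at 6.66, and lowest in Apc/Trp53. Kdm3a, a histone H3K9 demethylase, had levels of 2.31, -0.34, 2.97, 2.47, 2.83 and 3.32. Only the Trp53 loss array was low, by 6.28-fold against control, and both double mutants were therefore 9.96-fold and 9.04-fold above it. Against control they differed by 0.67 and 0.53, and Kdm3a is read by 1 probe.

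The design makes control the reference, and Trp53 loss against it showed slightly higher levels of most glycolysis members. Of 20, 17 were higher than in control, with a median log2 difference of 0.36, and of the 14 hypoxia members 9 were higher, with a median of 0.08. The median over all 14358 genes measured was 0.04, and 54.2% of them were higher. Pfkp, Ankrd37 and Car12 were at least 2-fold higher, 3 of 34 members where 4.53% of all genes were. Kdm3a was at least 2-fold lower, 1 of 34 where 6.07% of all genes were. The 3 glycolysis members below 0 were Hk2, Aldoa and Pgk1, at -0.01, -0.09 and -0.14. Control lay in the second row of the slide, and Trp53 loss and both double mutants before inoculation in the first. Slide row and the contrasts of control with these 3 cultures therefore cannot be told apart. Control and Trp53 loss lay in slide column 4, both Pik3ca arrays in column 2 and both Apc arrays in column 1. Slide column therefore cannot be told apart from the Pik3ca or Apc mutation in any contrast with control or Trp53 loss. Both tumour-derived arrays lay in the second row with control. There Ankrd37, at 2.71 and 2.44 against 1.32, and Car12, at 2.70 and 1.77 against 0.25, were above control too, while Pfkp was at 2.49 and 1.47 against 2.15. Of all calls 42.7% were higher, or 57.7% when arrays were scaled by their median, which raised the median of all genes to 0.22 and that of the 34 members from 0.30 to 0.48.

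With the Pik3ca mutation added to Trp53 loss, calls were no more frequent among the members than among all genes. Eno2, Kdm3a and Higd1a were at least 2-fold higher, 3 of 34 members where 8.85% of all 14234 genes were. Hk2 was at least 2-fold lower, 1 of 34 where 5.77% were. Kdm3a was low on the Trp53 loss array alone, and against control it differed by 0.67. The members not called differed from Trp53 loss by less than 2-fold, from -0.71 for Vegfa to 0.93 for Adm. The glycolysis members had a median of 0.27, with 14 of 20 higher, and the hypoxia members of 0.15, with 9 of 14 higher, while the median of all genes was 0.05. Against control in place of Trp53 loss, the median of the 34 members was 0.67, beside 0.08 for all 14317 genes. At least 2-fold higher were 8 of 34, where 10.2% of all genes were, and 1 of 34 was lower, Hk2 at -1.04, where 8.09% were. The higher members were Eno2 at 4.29, Ankrd37 at 2.11, Car12 at 1.91, Higd1a at 1.73, Adm at 1.66, Aldoc at 1.38, Tpi1 at 1.03 and Pdk1 at 1.01. Of the markers of other cell types, the endothelial Kdr was at least 2.44-fold lower and the leukocyte marker Cd68 2.37-fold lower than in Trp53 loss, and the leukocyte marker Lyz2 at least 2.13-fold higher.

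Adding the Apc allele to Trp53 loss went with lower levels of nearly all members. All 20 glycolysis members were lower, by 0.01 to 0.86 log2 units with a median of -0.28, and 12 of 14 hypoxia members were, with a median of -0.72. Of all 14460 genes 47.8% were lower, with a median of 0.01. Egln3, Car9, Vegfa, Adm and Ndrg1 were at least 2-fold lower, 5 of 34 members where 4.45% of all genes were. Kdm3a was at least 2-fold higher, 1 of 34 where 3.71% of all genes were. Its level was low on the Trp53 loss array alone, and against control it differed by 0.53. Scaled by array medians, 17 of 20 glycolysis members were lower than in Trp53 loss and all 20 lay below the median of all genes. Markers of other cell types moved on this array as well. Of 3 endothelial genes measured, Kdr was 8.46-fold and Cdh5 3.85-fold higher than in Trp53 loss, and the list's summed signal was at least 1.87 times the 75th percentile on both Apc arrays and 0.37 to 0.68 on the other 4, while Tek, Emcn, Tie1 and Erg were not above background. All 4 leukocyte markers measured were lower, Cd68 by 3.02-fold, and the list's summed signal was 6.85 against 13.7. Their part in the members' differences was not tested.

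Much of this difference depends on the Trp53 loss array. Against control the median of the 34 members in Apc/Trp53 was -0.022, that of the glycolysis members 0.021 and that of the hypoxia members -0.35. The median of all 14584 genes was 0.05. At least 2-fold lower were 3 of 34 members, where 8.78% of all genes were, namely Car9 at -1.79, Vegfa at -1.31 and Egln3 at -1.31. At least 2-fold higher were 2, Ankrd37 at 1.44 and Car12 at 1.24, where 6.15% were. Of the glycolysis members 11 of 20 lay above control, and they ranged from -0.63 for Hk2 to 0.53 for Pfkp. Aldoc was at 0.48, Eno1 at 0.34 and Slc2a1 at -0.27, while Gapdh at 0.04, Ldha at 0.00 and Pkm at -0.04 were close to control.

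**Figure D3:**
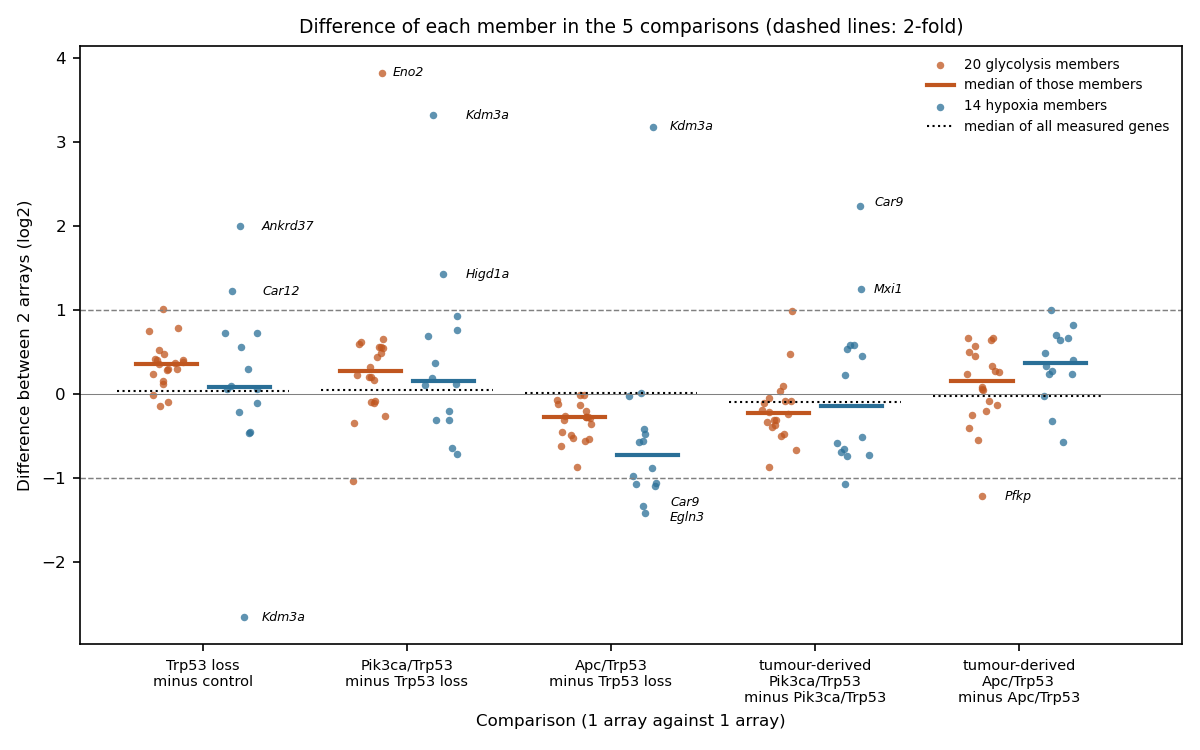
Log2 difference of each of the 34 members in the 5 comparisons of 1 array with 1 array, with glycolysis members in orange and hypoxia members in blue, thick lines at their medians and dotted lines at the median of all measured genes. The medians of both groups lie below 0 in Apc/Trp53 minus Trp53 loss, at -0.28 and -0.72, and points outside the dashed lines differ by more than 2-fold.

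Organoids from the Pik3ca/Trp53 adenocarcinoma had higher Car9, Mxi1 and Slc2a1 than their source and slightly lower levels of most enzymes. Car9 and Mxi1 were at least 2-fold higher, 2 of 34 members where 11.1% of all 14713 genes were, and P4ha1 at least 2-fold lower, 1 of 34 where 10.2% were. Of the glycolysis members 16 of 20 were lower, with a median of -0.22, against -0.09 for all genes, and 13 of 20 lay below that median. With quantile normalization 13 of 20 were lower, with a median of -0.068 against -0.040 for all genes. The hypoxia members were split, 7 higher and 7 lower. Beside Car9 and Mxi1, those higher were P4ha2 at 0.58, Vegfa at 0.59, Car12 at 0.54, Ndrg1 at 0.45 and Egln3 at 0.22, and the 7 lower ran from P4ha1 at -1.07 to Kdm3a at -0.50. Markers of other cell types moved on the same array. Fibroblast markers were well above background for 4 of 8 there and for 0 or 1 of 8 elsewhere, while Col3a1, Dcn, Lum and Thy1 were not. Their summed signal was 5.20 times the 75th percentile there against 0.10 to 0.18 elsewhere. Most of that sum was Postn, at a level of 2.27, while Pdgfra was at -2.70. Postn was at least 86.8-fold higher than in the source, and the adipose marker Fabp4 at least 32.5-fold. The adipose markers Adipoq and Plin1 were not above background, and Lep had a level of -2.27 against -2.13 in the source. The endothelial gene Erg was at least 7.10-fold and the muscle gene Mb 7.67-fold higher, and the leukocyte marker Lyz2 at least 2.08-fold lower. Their part in the members' differences was not tested.

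Organoids from the Apc/Trp53 cyst had lower Pfkp than their source and slightly higher levels of most hypoxia members. Pfkp was at least 2-fold lower, 1 of 34 members where 6.59% of all 14876 genes were, and 0 of 34 were at least 2-fold higher where 9.67% of all genes were. Of the hypoxia members 11 of 14 were higher, with a median of 0.37, and of the glycolysis members 13 of 20, with a median of 0.16, against -0.03 for all genes. Scaled by array medians, which moved the median of all genes to -0.36, the medians of the hypoxia and glycolysis members were 0.039 and -0.17, so that the glycolysis median changed sign, and 12 of 14 and 13 of 20 still lay above the median of all genes. That scaling also turned the share of higher genes among all calls from 59.5% to 34.2%. Higher members included Bnip3 at 1.00, Higd1a at 0.82, P4ha1 at 0.70, Adm and Aldoc at 0.67, Pdk1 at 0.67 and Egln1 at 0.64, and Egln3 differed by -0.57. The muscle marker Ckm was at least 13.7-fold and the leukocyte marker Ptprc at least 3.44-fold higher, both low signals, with 3 of 8 and 5 of 8 markers of their lists above background. The leukocyte marker Cd68 was 4.53-fold and the endothelial Cdh5 5.34-fold lower, and the muscle gene Mb was 2.87-fold and the haemoglobin gene Hba-a1 3.25-fold higher. Their part in the members' differences was not tested.

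The tumour-derived cultures of both genotypes were set beside each other. Of the 34 members, 18 (52.9%) were lower in the tumour-derived Pik3ca/Trp53 culture and higher in the tumour-derived Apc/Trp53 culture than in their sources, 5 the reverse, 6 higher in both and 5 lower in both. Of 13921 genes measured in both pairs, 26.9% were lower in the Pik3ca pair and higher in the Apc pair. Scaled by array medians, these were 13 of 34 members and 14.6% of all genes, with 12 members lower in both pairs. In both pairs the source lay in the first row of the slide and the tumour-derived culture in the second row. Over both pairs together, limma's paired fit with 1 residual degree of freedom called 0 of 14227 genes at an adjusted p of 0.05 (0%). At an unadjusted p of 0.05 it had 544 genes, 3.82% of them, and 0 of the 34 members. The fit had only both genotypes as replicates, so 0 calls do not show that shared changes are absent. Mxi1, with a mean difference of 0.83 log2 units and a standard error of 0.37, had the lowest p among the members in limma, 0.120, and an adjusted p of 0.988 (Benjamini-Hochberg). It was higher in both pairs, by 1.25 and 0.41.

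Genes around the members were read from other lists of the same pathways. Of 33 other genes of glycolysis and pyruvate handling, 23 to 26 were above background on an array. The neuronal-type glucose transporter gene Slc2a3 had levels of -3.86, -2.33, -2.71, -6.61, -1.17 and 1.25, and was not above background in tumour-derived Pik3ca/Trp53, the array where Slc2a1 was highest. In tumour-derived Apc/Trp53, where Slc2a1 was lowest, Slc2a3 was 5.36-fold above its source. Ldhb, the lactate dehydrogenase subunit of heart, had levels of 4.58, 4.25, 4.39, 2.73, 4.41 and 6.25, and was 3.16-fold lower and 3.59-fold higher than the source in the Pik3ca and Apc pairs. The monocarboxylate transporter gene Slc16a7 had levels of -2.78, -3.10, -0.48, -2.98, -2.54 and -0.75, high in Pik3ca/Trp53 and in tumour-derived Apc/Trp53. In that last culture 9 of 26 measured genes of this list were at least 2-fold higher and 0 lower, with a median of -0.02. Of all genes 9.67% were higher and 6.59% lower.

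Of the 14 genes for HIF subunits and oxygen sensing, 0 were called in Trp53 loss minus control or in Pik3ca/Trp53 minus Trp53 loss. Of all genes 4.53% were called higher and 6.07% lower in the first comparison, and 8.85% and 5.77% in the second. In Apc/Trp53, 12 of 14 were lower than in Trp53 loss, with a median of -0.15, where 47.8% of all genes were lower. Hif3a and Cited2 were at least 2-fold lower, 2 of 14 where 4.45% of all genes were. Hif3a, an alternative alpha subunit, was 3.19-fold lower there, and 2.82-fold and 3.03-fold above the source in the Pik3ca and Apc tumour-derived cultures. Cited2, whose product competes with HIF for its coactivator, was 2.07-fold lower in Apc/Trp53 and 5.94-fold higher in tumour-derived Pik3ca/Trp53 than in its source. Arnt2, a partner of the alpha subunits, was 12.5-fold lower in that culture. The main alpha subunit genes, named after their values were seen, had levels of 3.34, 3.43, 3.06, 3.98, 3.08 and 2.55 (Hif1a) and 3.45, 3.22, 3.13, 3.19, 2.57 and 1.68 (Epas1). Both were lowest in tumour-derived Apc/Trp53, and Hif1a was highest in tumour-derived Pik3ca/Trp53. HIF alpha subunits are controlled mainly as proteins, which the arrays do not measure.

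Among 44 further HIF targets, 32 of 41 measured were lower in Apc/Trp53 than in Trp53 loss, with a median of -0.43, where 47.8% of all genes were. At least 2-fold lower were 7 of 41, where 4.45% of all genes were. Edn1, for the vasoconstrictor endothelin, was 2.93-fold lower there and Flt1, a VEGF receptor gene, 5.99-fold lower. In Pik3ca/Trp53 minus Trp53 loss 26 of 40 were higher, with a median of 0.36, where 53.9% of all genes were. There 2 of 40 were at least 2-fold higher, where 8.85% of all genes were, among them the hormone gene Stc1 by 3.25-fold. At least 2-fold lower were 4 of 40, where 5.77% were. These included the lipid droplet gene Plin2 by 2.64-fold and the nuclear receptor gene Rora by 2.52-fold. Angptl4, a lipoprotein lipase inhibitor, was not above background in control and at least 7.41-fold higher in Trp53 loss, and 11.8-fold higher in tumour-derived Pik3ca/Trp53 than in its source. Cxcl12, a chemokine of stromal cells, was above background on that array alone, at least 25.5-fold above the source. The collagen crosslinking gene Loxl2 was 9.59-fold higher in tumour-derived Apc/Trp53 than in its source, and the hormone gene Stc2 was 4.42-fold lower. In the Pik3ca pair 10 of 44 targets measured were at least 2-fold higher and 4 lower, where 11.1% and 10.2% of all genes were. In the Apc pair 6 of 42 were higher and 5 lower, where 9.67% and 6.59% were.

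The tricarboxylic acid cycle oxidises the carbon of pyruvate in mitochondria. All 16 of its genes were higher on the Trp53 loss array than on the control array, as 54.2% of all genes were. Their median was 0.53, where the glycolysis members had 0.36. In each tumour-derived culture 15 of 16 were lower than in the source, where 55.8% (Pik3ca) and 52.5% (Apc) of all genes were. The medians were -0.57 and -0.35, where the glycolysis members had -0.22 and 0.16. In Pik3ca/Trp53 minus Trp53 loss 11 of 16 were lower, where 44.8% of all genes were. Their median was -0.12, where the glycolysis members had 0.27. The 9 genes of the pentose phosphate pathway had medians between -0.24 and 0.18 in the 5 comparisons and 0 calls. Of all genes 3.71% to 11.1% were called each way. Of 20 proliferation genes, 14 were at least 2-fold higher in Pik3ca/Trp53 than in Trp53 loss, with a median of 1.49, where 8.85% of all genes were. In Apc/Trp53 0 of 20 were, where 3.71% of all genes were, but all 20 were higher to some degree, with a median of 0.35. All 20 were also higher in Trp53 loss than in control, with a median of 0.62. In the Pik3ca pair 18 of 20 were lower in the tumour-derived culture, with a median of -0.58. In the Apc pair 14 of 20 were higher, with a median of 0.66, and 5 at least 2-fold, where 9.67% of all genes were. Markers of multiciliated cells were lower on the Trp53 loss array than on the control array for 9 of 9 measured. At least 2-fold lower were 8 of them, where 6.07% of all genes were. The part of cell makeup and of growth rate in the members' differences was not tested.

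**Figure D4:**
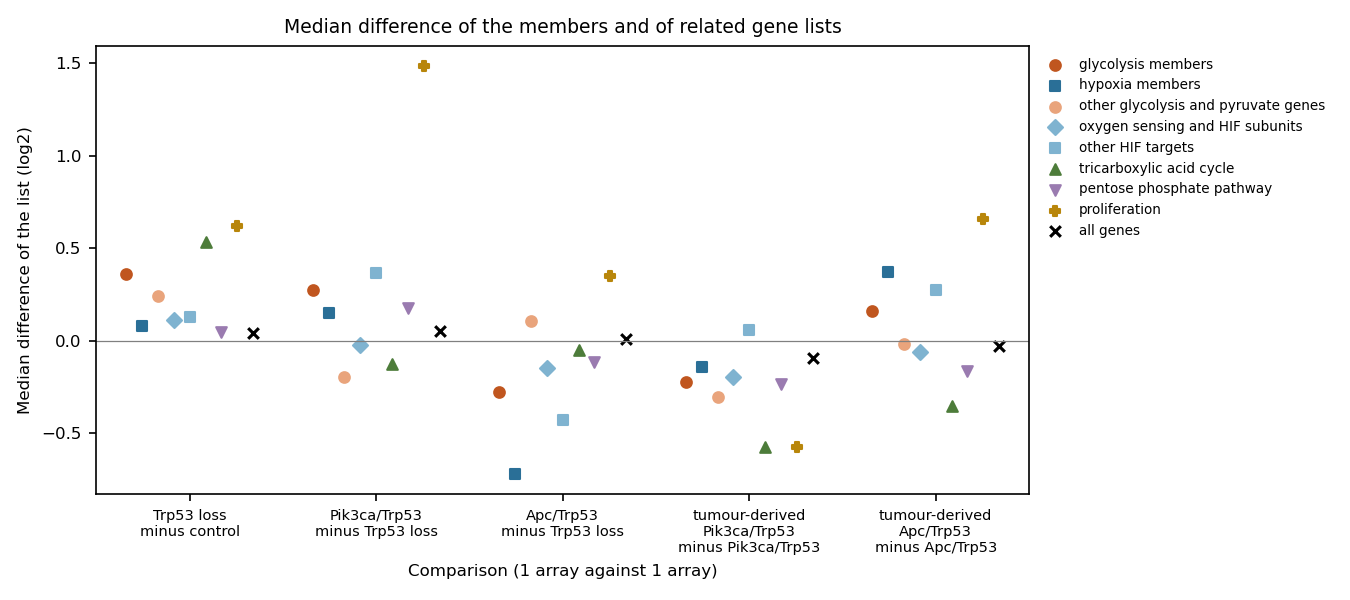
Median log2 difference of the members (dark orange and dark blue) and of related gene lists in each of the 5 comparisons, with all measured genes as crosses. Proliferation genes have the highest median in Pik3ca/Trp53 minus Trp53 loss, at 1.49, and tricarboxylic acid cycle genes lie below 0 in both tumour-derived comparisons, at -0.57 and -0.35.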

How the data were processed

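The 6 arrays shared a slide and a scan. Agilent Feature Extraction 11.0.1.1 made the deposited scanner files, per the submitters' processing notes, and per the file headers they give each spot's background-subtracted intensity, not scaled between arrays, and its flags. Deposited log2 values cover 2047 probes, 1 of them a member's (Car9). Their columns differ as the log2 intensities do, but for a constant (slope of 1, r of 1). Their column medians, in the report's order of groups, were 0.03, -0.02, 0.15, -0.05, -0.32 and -0.20, and the centring and choice of probes are not known.

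Control and outlier spots were left out (68 probes, 0 of the members), copies averaged, and each array's 75th percentile subtracted from log2 intensities. By accession, 34521 of 56537 probes matched 23765 RefSeq genes. Genes take the mean of their probes, without those dim on all 6 arrays. A dim signal was raised to the lowest signal that its array flags as well above background, giving "at least". The members and lists were chosen with earlier results of these data known. All members are described, and of each other list at most the 3 genes per comparison with the largest differences of at least 2-fold were named, except for a gene that is not reported here. Lists of gluconeogenesis (at most 1 gene called each way in a comparison), endothelium (1 to 3 of 7 above background on an array) and red blood cells (0 or 1 of 4) were also read. The limma fit (4 arrays, genotype as a block) kept genes above background on 2 or more arrays, and its script was tested on simulated data. Every group is 1 culture on 1 array, which limits the precision. Python 3.11.15, numpy 2.4.6, pandas 2.3.3, matplotlib 3.10.9, R 4.3.3, limma 3.58.1 and data.table (version 1.17.8) were used. Alternatives covered scaling, background correction, probe filters, the probe used and the reference array.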

Additional observations from a re-analysis of the deposited data

Results flagged for a closer look

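For 14 members the tumour-derived culture differed from its source in opposite directions in the Pik3ca/Trp53 and the Apc/Trp53 pair, on both sides by more than the median SD between probes of a gene. Each pair is 1 array against 1 array, so these differences between the pairs were not tested. The share of all genes that this rule would flag is not given here. By sign alone, 26.9% of all 13921 genes were lower in the Pik3ca pair and higher in the Apc pair, and 23.2% the reverse. Of the 34 members 18 and 5 were. 2 of the 14 were higher in the Pik3ca pair and lower in the Apc pair. Slc2a1 differed by 0.99 and -0.20, and Egln3 by 0.22 and -0.57. The other 12 were lower in the Pik3ca pair and higher in the Apc pair.

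Among the glycolytic enzymes and their regulator, Tpi1 differed by -0.21 and 0.46, Gapdh by -0.23 and 0.34, Eno1 by -0.31 and 0.26, Pkm by -0.48 and 0.57, Ldha by -0.31 and 0.28, and Pdk1 by -0.50 and 0.67. The rule used the median SD over all genes, and the probes of Ldha and Pdk1 disagreed in sign. In the Apc pair the 2 Ldha probes differed by -0.08 and 0.64. In the Pik3ca pair the 4 Pdk1 probes ran from -0.75 to 0.14. Among the hypoxia targets, Adm differed by -0.73 and 0.67, Bnip3 by -0.58 and 1.00, Higd1a by -0.69 and 0.82, Egln1 by -0.66 and 0.64, P4ha1 by -1.07 and 0.70, and Kdm3a by -0.50 and 0.49. The Apc values of these members shift down together when arrays are scaled by their median, as the median of all genes does. Eno1 and Ldha are then lower than the source in both pairs, so their opposite signs are lost. Gapdh in the Apc pair and Egln3 in the Pik3ca pair keep their signs, but then differ by less than the rule's median SD. Tpi1 in the Apc pair then lies close to that SD. Under that scaling 13 of all 34 members were lower in the Pik3ca pair and higher in the Apc pair.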

How the results depend on the processing

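Of the summary values under the alternatives, 200 stayed within 1.5 times or within the probe spread and 22 moved. Scaled by the array median, the medians of the 34, glycolysis and hypoxia members became 0.48, 0.54 and 0.25 in Trp53 loss minus control and -0.064, -0.17 and 0.039 in tumour-derived Apc/Trp53 minus its source, and members at least 2-fold lower numbered 0 in Pik3ca/Trp53 and 3 in Apc/Trp53. With quantile normalization, 1 member (Bnip3) was at least 2-fold higher in tumour-derived Apc/Trp53. With normexp on median signals, a later choice because the planned mean signals are not in the files used, lower members numbered 2 in Apc/Trp53 before inoculation and 0 in the tumour-derived Pik3ca culture, and higher members 1 in the tumour-derived Apc culture. With the brightest probe, 0 were lower in the tumour-derived Pik3ca culture. Against control, also a later choice, medians were 0.67, 0.68 and 0.54 with 8 higher members and 1 lower in Pik3ca/Trp53, and -0.022, 0.021 and -0.35 with 2 higher and 3 lower in Apc/Trp53. Beyond the change of array or scale itself, the cause was not tested.

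For the 18 called differences of members, 156 alternative values had 0 reversals, and 14 kept the sign but lay under 2-fold. limma called 0 genes under every alternative run, with 480 to 887 genes at an unadjusted p of 0.05. Leaving out a pair leaves no residual degrees of freedom, so it was not run. No paired analysis by replicate number was possible because every group has 1 array.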
